A study of Mus musculus with 18 samples.

Results

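Adgrg1, Enpp2, Fam43a and Serpinb9g are 4 of 24028 genes counted by polyA RNA-seq in C2C12, an immortal mouse myoblast line. They were chosen by their measured rise with doxycycline in a clonal line that carries a firefly luciferase transgene, where they had the largest or clearest increases, so their values in that line are given as a description without a test. The question asked here is whether the rise was shared by 2 other clonal lines, whose libraries took no part in the choice. Mouse Dux and human DUX4 are double-homeobox transcription factors of the early embryo, and luciferase, a light-producing insect enzyme, is the control protein. The lines carried a doxycycline-inducible, codon-altered mouse Dux (clone 15B), a doxycycline-inducible, codon-altered human DUX4 (clone 9) or doxycycline-inducible luciferase (Luc2A), and all were grown in puromycin. Each line was measured with doxycycline at 2 µg/ml for 36 h and without it, with 3 separate cultures in each of the 6 groups. Every transgene was represented by 1 clonal line, so transgene, clone and line cannot be told apart.

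ADGRG1, also called GPR56, is an adhesion G protein-coupled receptor that binds collagen III and transglutaminase 2 in the extracellular matrix and signals through G12/13 proteins to RhoA. ENPP2, or autotaxin, is a secreted lysophospholipase D that makes lysophosphatidic acid (LPA), a lipid that acts on the LPAR receptors. SERPINB9 proteins are intracellular serine protease inhibitors, best known for blocking granzyme B, and the mouse has a cluster of closely related Serpinb9 genes. FAM43A is little characterised. Doxycycline is a tetracycline antibiotic that also slows protein synthesis on mitochondrial ribosomes.

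The 4 genes lie apart in the genome, on 4 chromosomes in the RefSeq annotation of GRCm38.p6 (mm10). Adgrg1 (Entrez 14766) spans chr8:94974756-95014208, Enpp2 (Entrez 18606) spans chr15:54838901-54952789, Fam43a (Entrez 224093) spans chr16:30599723-30602797 and Serpinb9g (Entrez 93806) spans chr13:33484790-33496002. All are protein-coding genes, and the span of Fam43a equals its merged exon length of 3075 bases. Promoter windows of 300 bases, with 250 bases before the start site, are shown for the genes that stood higher together in the luciferase line and that RefSeq lists. Enpp2 had no entry. Of the 2 windows for Adgrg1, at chr8:94976859-94977158 and chr8:94984149-94984448, the second is shown because it held motif matches, and which start site was used cannot be told from gene counts. The Fam43a window is chr16:30599473-30599772 and the Serpinb9g window is chr13:33484540-33484839, all on the plus strand, 5′ to 3′, with motif matches in capitals.
Adgrg1 promoter 2: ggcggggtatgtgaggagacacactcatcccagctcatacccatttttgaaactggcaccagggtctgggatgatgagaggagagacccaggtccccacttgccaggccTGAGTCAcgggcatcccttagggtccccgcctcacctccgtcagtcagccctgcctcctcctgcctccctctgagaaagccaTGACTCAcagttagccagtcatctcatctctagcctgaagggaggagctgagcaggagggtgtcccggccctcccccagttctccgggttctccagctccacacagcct
Fam43a promoter: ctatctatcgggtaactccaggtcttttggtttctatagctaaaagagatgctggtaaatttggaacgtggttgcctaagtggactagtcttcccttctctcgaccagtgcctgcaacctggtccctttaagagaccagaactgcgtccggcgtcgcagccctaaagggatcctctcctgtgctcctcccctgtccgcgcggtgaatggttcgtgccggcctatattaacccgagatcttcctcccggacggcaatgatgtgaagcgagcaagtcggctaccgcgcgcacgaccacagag
Serpinb9g promoter: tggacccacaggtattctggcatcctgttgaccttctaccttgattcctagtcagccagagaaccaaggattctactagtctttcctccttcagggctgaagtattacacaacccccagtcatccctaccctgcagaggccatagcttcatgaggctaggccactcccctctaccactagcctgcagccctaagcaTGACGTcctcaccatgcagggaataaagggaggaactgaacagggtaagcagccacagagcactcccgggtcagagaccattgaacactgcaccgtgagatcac

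The windows shared no match among 5 motifs searched on both strands, which were picked after the sequences had been seen. The motifs were TATAAA of core promoters, CCAAT, known to bind NF-Y, TGANTCA of AP-1, TGACGT, the core of the cyclic AMP response element, and GGGCGG, known to bind SP1. The second Adgrg1 window held TGANTCA at positions -141 and -59 from the start site. That motif was in 7.81% of 32851 RefSeq windows of the same length, and 0.460% held it 2 or more times. The Serpinb9g window held TGACGT at position -54, a motif found in 7.51% of windows. The first Adgrg1 window and the Fam43a window held none of the 5, of which TATAAA was in 13.6% of windows, CCAAT in 37.4% and GGGCGG in 35.7%.

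Levels are given as CPM, each library's counts scaled to a common total with TMM factors, and the libraries held between 11010586 and 17179642 counts. All 4 genes passed the filter on low counts, with 13602 genes tested, but Serpinb9g had more than 8 counts per library only in mouse Dux and luciferase cultures with doxycycline. Replicate libraries differed most in the mouse Dux line with doxycycline, where chi-square per degree of freedom between pairs ran between 2.14 and 36.4. It ran between 1.26 and 5.25 in that line without doxycycline and between 1.34 and 2.79 in the other 4 groups. Replicate 1 stood apart in the mouse Dux line, since its pairs had 34.0 and 36.4 with doxycycline and 5.16 and 5.25 without it. The pair of replicates 2 and 3 had 2.14 and 1.26. The 8 myoblast markers summed to between 1258 and 1373 CPM in mouse Dux cultures with doxycycline and between 1518 and 1570 CPM without it. In the human DUX4 line they summed to between 512 and 523 CPM with doxycycline, with Pax7 at 0, and between 803 and 848 CPM without it. In the luciferase line they summed to between 2264 and 2364 CPM with doxycycline and between 2850 and 2865 CPM without it. Markers of differentiating muscle, 4 of 5 of which were in the table, summed to between 320 and 361 CPM with doxycycline and between 627 and 676 CPM without it in the luciferase line, and to between 1.81 and 10.8 CPM in the other 4 groups. The luciferase clone therefore differed from the other clones in muscle gene levels, and these moved with doxycycline in the same libraries as the 4 genes. Their part in the results was not tested. In bulk RNA, fewer cells of a type and less RNA per cell cannot be told apart.

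In the luciferase line every library with doxycycline stood above every library without it for all 4 genes, which is what they were chosen for. Adgrg1 had 89.4, 89.5 and 89.4 CPM with doxycycline, against 10.2, 9.32 and 11.0 CPM without it. Enpp2 had 333, 313 and 331 CPM with doxycycline, against 82.9, 90.1 and 79.2 CPM without it. Fam43a had 35.3, 36.5 and 41.0 CPM with doxycycline, against 5.71, 4.997 and 5.11 CPM without it. Of the 4 genes, Adgrg1 differed least between the libraries with doxycycline. Serpinb9g was the rarest of the 4, with 12.6, 8.65 and 12.3 CPM with doxycycline (202, 134 and 206 counts) against 0.404, 0.488 and 0.414 CPM without it (7, 8 and 6 counts). The log2 fold changes of the edgeR fit were 3.14 (SE 0.0846) for Adgrg1, 1.96 (SE 0.0559) for Enpp2, 2.83 (SE 0.0904) for Fam43a and 4.66 (SE 0.258) for Serpinb9g. Per kilobase of merged exon, Enpp2 had the highest level with doxycycline at 56.4 CPM per kb, followed by Adgrg1 at 16.5, Fam43a at 12.2 and Serpinb9g at 5.79 CPM per kb.

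**Figure D1:**
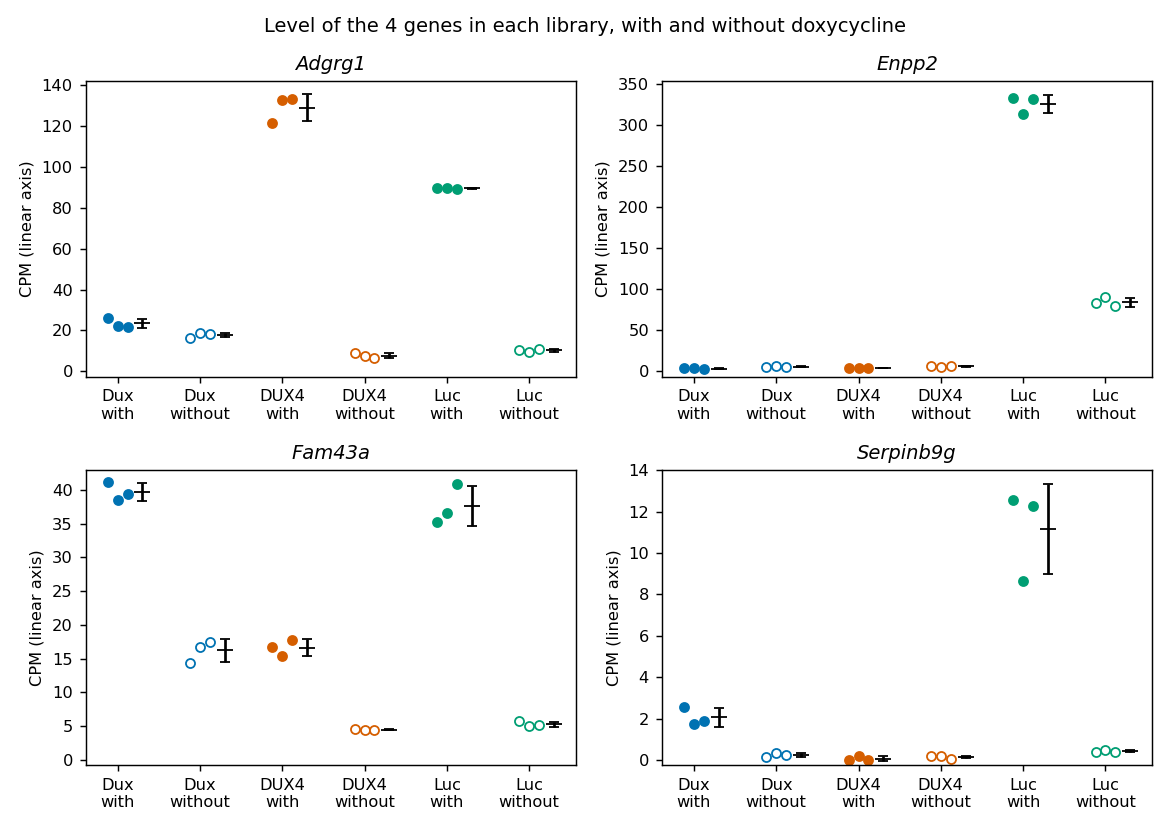
Level of each gene in CPM (linear axis, from 0 upward, each panel with its own range) in the 3 libraries of each group, with filled points for doxycycline, open points for none, and the mean ± SD beside them. In the luciferase line all 4 genes stood higher with doxycycline, while Enpp2 stayed under 7 CPM in every mouse Dux and human DUX4 library.

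Among the 2004 genes called higher in the luciferase line (14.7% of those tested, with 16.4% called lower), the F statistic ordered Adgrg1 1, Enpp2 2, Fam43a 3 and Serpinb9g 20, which restates how they were chosen and supports nothing further. The next 3 genes by F were Gja1, which encodes the gap junction protein connexin 43, with a log2 fold change of 1.19, Neat1, the long noncoding RNA of paraspeckles, with 1.95, and Etl4 with 1.73. By size of the log2 fold change Serpinb9g was 3, Adgrg1 12, Fam43a 16 and Enpp2 38. The 10 genes with the largest changes were mostly rare in the luciferase line. Besides Serpinb9g they included Cabp2 (40 counts over 3 libraries with doxycycline, 1 without), Klhl32 (10 and 0), Serpinb9f (111 and 5), Ccl11 (6 and 0), Card9 (6 and 0), Ostn (5 and 0), Gm18853 (32 and 2) and Alk (31 and 2). Several of these genes were more abundant in another line, as Klhl32 in mouse Dux cultures with doxycycline (218 counts) and Card9 and Ostn in human DUX4 cultures with doxycycline (81 and 79 counts), and could pass the filter on low counts there, so no count of their calls in those lines is given.

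The other lines shared the rise in part, and which genes they shared differed. In the mouse Dux line 3 of the 4 genes were called higher and 1 lower, where 34.1% of all tested genes were called higher and 34.8% lower. In the human DUX4 line 2 were called higher, 1 lower and 1 was not called, where 34.4% of all genes were called higher and 33.1% lower. Fam43a and Adgrg1 were called higher in both, Enpp2 was called lower in both, and Serpinb9g was called higher in the mouse Dux line alone. Calls used an adjusted p under 0.05 in the quasi-likelihood F test of edgeR. With so many genes called in each direction, 4 genes are too few to set against those shares.

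**Figure D2:**
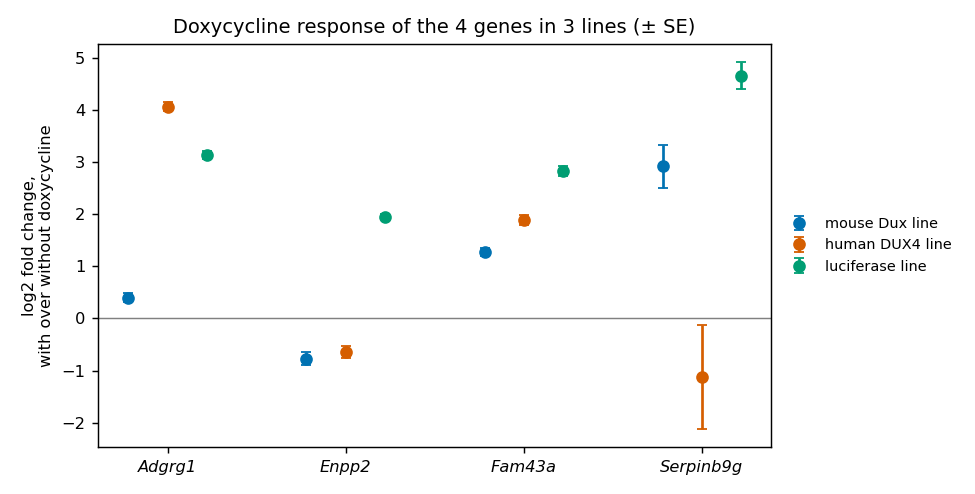
Log2 fold change with over without doxycycline (± SE, edgeR) of the 4 genes in the mouse Dux, human DUX4 and luciferase lines, from left to right. Only Fam43a and Adgrg1 lie above 0 in all 3 lines, at 1.28 and 0.40 in the mouse Dux line and 1.89 and 4.06 in the human DUX4 line.

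Adgrg1, the adhesion receptor, rose most in the human DUX4 line and little in the mouse Dux line. The human DUX4 cultures had 121, 133 and 133 CPM with doxycycline, against 8.88, 7.57 and 6.56 CPM without it. In the mouse Dux line it had 26.2, 22.2 and 21.8 CPM with doxycycline, against 16.4, 18.7 and 18.1 CPM without it. The libraries with and without doxycycline did not overlap in either line, but the gap was narrow in the mouse Dux line. The log2 fold change was 4.06 (SE 0.0884, edgeR adjusted p = 5.19e-18) in the human DUX4 line, a 16.7-fold change, and 0.40 (SE 0.0880, edgeR adjusted p = 0.000542) in the mouse Dux line. Replicate 1 of the mouse Dux line was the highest with doxycycline and the lowest without it. Without replicate 1 of the cultures with doxycycline, the mouse Dux value was 0.29 (edgeR adjusted p = 0.00349). With library size alone as the scaling, the mouse Dux value was 0.15 (edgeR adjusted p = 0.118) and was no longer called. That scaling moved the median log2 fold change of all genes in the mouse Dux line to -0.25, and 31.6% of the calls there were then higher, against 49.5% with TMM scaling. The 6 groups ranked without overlap between neighbours, with human DUX4 with doxycycline highest at 129 ± 6.59 CPM and human DUX4 without doxycycline lowest at 7.67 ± 1.16 CPM (SD, n = 3 each). Markers of cytotoxic lymphocytes, a cell type known for Adgrg1, summed to at most 0.191 CPM in any library. The 5 macrophage markers summed to between 33.9 and 36.3 CPM in human DUX4 cultures with doxycycline, with Ptprc at 0, and between 3.32 and 4.38 CPM without it, and their part in the Adgrg1 result was not tested.

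Adgrg1 belongs to a family of adhesion receptor genes that were called in both directions. Of 17 tested adhesion receptor genes, 7 were called higher and 6 lower in the mouse Dux line, 9 higher and 4 lower in the human DUX4 line, and 1 higher and 2 lower in the luciferase line, where the 1 was Adgrg1. Adgrg1 was chosen for that rise, and no other gene of the 17 was called higher in the luciferase line. Over all tested genes 14.7% were called higher and 16.4% lower in the luciferase line. These shares were 34.1% and 34.8% in the mouse Dux line, and 34.4% and 33.1% in the human DUX4 line. The list's median log2 fold changes were 0.32, 0.24 and -0.06 in the mouse Dux, human DUX4 and luciferase lines, against -0.01, 0.00 and 0.00 over all genes. Adgrg3 was the nearest tested gene after Adgrg1, at 2.91 kb. It fell in the mouse Dux line (log2 fold change -1.78) and in the human DUX4 line (-3.26), and had -0.06 in the luciferase line. Tgm2, the transglutaminase that binds ADGRG1, fell in the mouse Dux line (-3.88) and the human DUX4 line (-0.78), and was lower in the luciferase line (-0.59). Col3a1, which encodes its collagen ligand, fell in the mouse Dux line (-1.20) and the human DUX4 line (-1.61), and had 0.08 in the luciferase line. Of the 14 ligand and coupling genes of the receptor, Gna13, a G protein subunit on the path to RhoA, was the single one called higher in the luciferase line (0.17), and Tgm2 the single one called lower.

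Enpp2, the LPA-producing enzyme, went the opposite way in the other lines, and at much lower levels. In the mouse Dux line it had 3.62, 3.53 and 2.86 CPM with doxycycline, against 5.43, 6.27 and 5.35 CPM without it. The human DUX4 cultures had 3.55, 3.63 and 3.95 CPM with doxycycline, against 6.07, 5.32 and 6.11 CPM without it. Every library with doxycycline was below every library without it in both lines, the reverse of the luciferase line. The fall was -0.77 on the log2 scale in the mouse Dux line (SE 0.121, edgeR adjusted p = 1.32e-05) and -0.65 in the human DUX4 line (SE 0.116, edgeR adjusted p = 6.05e-05). The level in the luciferase clone without doxycycline, 84.0 ± 5.53 CPM, was 14.8 times that of the mouse Dux clone without it (5.68 ± 0.506 CPM) and 14.4 times that of the human DUX4 clone without it (5.83 ± 0.444 CPM; SD, n = 3 each). The endothelial markers, a cell type in which ENPP2 is known, summed to between 22.5 and 24.7 CPM in luciferase cultures with doxycycline and between 23.7 and 27.2 CPM without it, nearly all Cdh5, and to at most 1.47 CPM in any library of the other lines. Cdh5, the only 1 of these 4 markers that passed the filter on low counts, had a log2 fold change of -0.11 in the luciferase line. The part of the endothelial markers in the Enpp2 result was not tested. Ccn3 was the nearest tested gene before Enpp2, at 85.1 kb. It was lower in the mouse Dux line (log2 fold change -0.41), had 0.01 in the human DUX4 line and was higher in the luciferase line (0.73). Taf2, 62.3 kb after Enpp2, was not called in any line (0.13, -0.13 and -0.11 in the same order).

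Of the 6 tested ENPP family genes, 2 were called higher and 4 lower in the mouse Dux line. In the human DUX4 line 1 was called higher and 3 lower. In the luciferase line 2 were called higher, with the other 4 not called. Those 2 include Enpp2, chosen for its rise there. Enpp1, which makes pyrophosphate from ATP, was called higher in all 3, at log2 fold changes of 0.48 in the mouse Dux line, 0.32 in the human DUX4 line and 0.35 in the luciferase line. Enpp3 fell in the mouse Dux line (-2.24) and the human DUX4 line (-3.89) and had 0.14 in the luciferase line. Among 8 tested LPA receptor and lipid phosphatase genes, Lpar1, a widely expressed LPA receptor, was the one called higher in all 3 lines (0.61 in the mouse Dux line, 0.56 in the human DUX4 line and 0.28 in the luciferase line). Plpp3, a phosphatase that degrades LPA, fell in the mouse Dux line (-0.28), rose in the human DUX4 line (0.15) and was higher in the luciferase line (0.66). The LPA list as a whole had 3 higher and 4 lower in the mouse Dux line, 5 higher and 3 lower in the human DUX4 line, and 3 higher and 4 lower in the luciferase line. The median log2 fold changes in the mouse Dux, human DUX4 and luciferase lines were -0.69, -0.32 and 0.18 for the ENPP list and -0.13, 0.21 and -0.02 for the LPA list, and the shares of all tested genes called are those given beside the adhesion receptors.

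Fam43a stood more than 2-fold higher with doxycycline in all 3 lines, the only one of the 4 genes to do so. In the mouse Dux line it had 41.2, 38.6 and 39.3 CPM with doxycycline, against 14.3, 16.8 and 17.5 CPM without it. The human DUX4 cultures had 16.7, 15.4 and 17.8 CPM with doxycycline, against 4.57, 4.49 and 4.38 CPM without it. No library with doxycycline overlapped those without it in the same line. The log2 fold change was 1.28 in the mouse Dux line (SE 0.0770, edgeR adjusted p = 1.86e-11) and 1.89 in the human DUX4 line (SE 0.105, edgeR adjusted p = 4.39e-12), set beside 2.83 in the luciferase line, where it was not tested. The mouse Dux cultures without doxycycline (16.2 ± 1.66 CPM) already had the level that human DUX4 cultures had with it (16.6 ± 1.22 CPM), and the 2 groups overlapped. Mouse Dux and luciferase cultures with doxycycline also overlapped, at 39.7 ± 1.32 and 37.6 ± 2.99 CPM (SD, n = 3 each). The nearest tested genes on either side did not share the pattern. Lsg1, 12.1 kb before Fam43a, rose in the mouse Dux line (log2 fold change 0.61) and had 0.05 in the human DUX4 line and -0.03 in the luciferase line. Xxylt1, 353 kb after Fam43a, had -0.02 in the mouse Dux line, fell in the human DUX4 line (-0.73) and was higher in the luciferase line (0.41). The paralogue Fam43b did not pass the filter on low counts.

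Serpinb9g rose in the mouse Dux line and was hardly present in the human DUX4 line. In the mouse Dux line it had 2.56, 1.73 and 1.90 CPM with doxycycline (39, 23 and 26 counts), against 0.170, 0.348 and 0.255 CPM without it (2, 6 and 4 counts). In the human DUX4 line it had 0, 0.198 and 0 CPM with doxycycline (0, 3 and 0 counts), against 0.188, 0.192 and 0.0754 CPM without it (3, 3 and 1 counts). The groups stood apart in the mouse Dux line and overlapped in the human DUX4 line. The log2 fold change in the mouse Dux line was 2.92 (SE 0.412, edgeR adjusted p = 3.68e-06). In the human DUX4 line the ratio of the scaled counts was 0.432, with an exact 95% interval of 0.0721 to 1.89 that covers counting error only, and the edgeR adjusted p was 0.332. Without replicate 2 of the human DUX4 cultures with doxycycline, which held all 3 of their counts, the fitted value was -4.32 and was called lower (edgeR adjusted p = 0.0297). That fitted value rests on 0 counts against 7 and is no measure of size.

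Reads of Serpinb9g can be hard to place, since 54.8% of the 50-base stretches of its transcript also occur in transcripts of other genes. The most were shared with Gm11397 (46.0%), Serpinb9f (37.5%), Serpinb9d (10.5%) and Serpinb9e (7.93%), and 0 with Serpinb9, Serpinb9b and Serpinb9c. The sources used here give neither read length nor the handling of reads with several matches, and the split between these copies is therefore uncertain. Adgrg1, Enpp2 and Fam43a shared 0% of such stretches. Serpinb9f, the nearest tested gene before Serpinb9g at 149 kb, with untested genes passed over, moved with it. It had 0.470 ± 0.114 CPM with doxycycline and 0.0863 ± 0.0870 CPM without it in the mouse Dux line, and 2.29 ± 0.572 CPM with doxycycline and 0.105 ± 0.0397 CPM without it in the luciferase line (SD, n = 3 each). Its log2 fold change was 2.30 in the mouse Dux line, where it was called higher (edgeR adjusted p = 0.00741), 0.68 in the human DUX4 line (edgeR adjusted p = 0.574) and 4.36 in the luciferase line.

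The granzyme B inhibitor gene Serpinb9, which shares no 50-base stretch with Serpinb9g, did not follow it. It fell in the mouse Dux line to 16.7 ± 0.428 CPM with doxycycline, against 46.8 ± 2.93 CPM without it, rose in the human DUX4 line to 75.3 ± 3.54 CPM with doxycycline, against 44.1 ± 1.39 CPM without it, and had 36.8 ± 1.40 CPM with doxycycline and 40.1 ± 0.674 CPM without it in the luciferase line (SD, n = 3 each). Of 15 tested clade B serpin genes, 8 were called higher and 4 lower in the mouse Dux line. In the human DUX4 line 6 were called higher and 2 lower, and in the luciferase line 5 higher and 2 lower. Those 5 include Serpinb9g, chosen for its rise there, and Serpinb9f, in which 37.5% of the 50-base stretches of Serpinb9g occur. Over all tested genes 34.1% were called higher and 34.8% lower in the mouse Dux line, 34.4% and 33.1% in the human DUX4 line, and 14.7% and 16.4% in the luciferase line. The list's median log2 fold changes were 0.81 in the mouse Dux line, 0.68 in the human DUX4 line and 0.59 in the luciferase line, against -0.01, 0.00 and 0.00 over all genes. Each median was the value of 1 gene not called in that line. In the mouse Dux line it was Serpinb9e (35 counts with doxycycline and 21 without). In the human DUX4 line it was Serpinb9f (5 and 3) and in the luciferase line Serpinb1b (79 and 52). Serpinb6a, a broadly expressed intracellular inhibitor, and Serpinb6c were called higher in all 3. Serpinb6c had log2 fold changes of 1.76 in the mouse Dux line, 7.84 in the human DUX4 line and 1.36 in the luciferase line, and Serpinb6a had 0.32, 1.75 and 0.32 in the same lines. Serpinb9b rose in the mouse Dux line (0.52) and the human DUX4 line (1.83) and was lower in the luciferase line (-0.48).

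**Figure D3:**
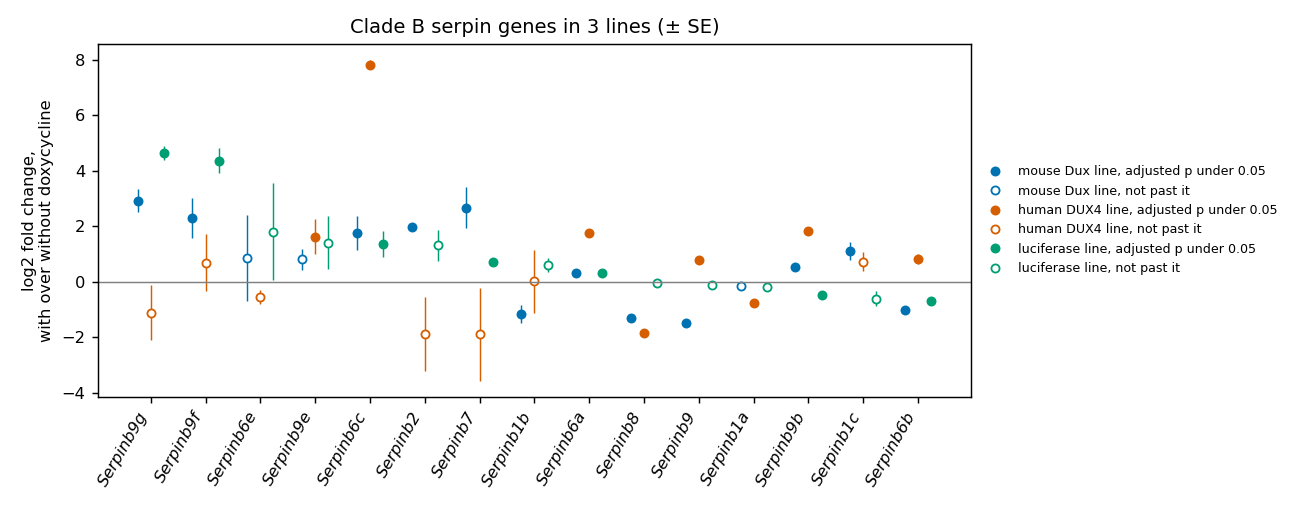
Log2 fold change with over without doxycycline (± SE, edgeR) of the 15 tested clade B serpin genes in the mouse Dux, human DUX4 and luciferase lines, with filled points for an adjusted p under 0.05. Serpinb9g and Serpinb9f have the highest values of the list in the luciferase line, at 4.66 and 4.36, whereas Serpinb6c has the highest value in the human DUX4 line, at 7.84.

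The responses of the mouse Dux and human DUX4 lines were compared by an interaction contrast, which used none of the luciferase cultures for its difference. Adgrg1 (-3.66 on the log2 scale, SE 0.127, edgeR adjusted p = 9.30e-15) and Fam43a (-0.61, SE 0.134, edgeR adjusted p = 0.000570) responded less in the mouse Dux line than in the human DUX4 line. Serpinb9g responded more in the mouse Dux line (4.04, SE 1.14, edgeR adjusted p = 0.00426), a difference that rests on 3 and 7 counts in the human DUX4 line. It ran between 3.503 and 7.24 over the alternatives, with 7.24 (edgeR adjusted p = 0.000590) without replicate 2 of the human DUX4 cultures with doxycycline, so its size is poorly known. For Enpp2 the difference was -0.12 (95% interval -0.48 to 0.23, edgeR adjusted p = 0.614). So 1 of the 4 genes was called higher and 2 lower in this contrast, where 32.9% of all genes were called higher and 32.3% lower. With library size alone, 38.8% of the calls in this contrast were higher, against 50.4% with TMM scaling. Responses of the luciferase line were not set against the others by a test, since that line chose the genes.

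The clones also differed before any doxycycline was added. Without doxycycline, Adgrg1 stood higher in the mouse Dux clone (17.7 ± 1.19 CPM) than in the human DUX4 clone (7.67 ± 1.16 CPM), a log2 difference of 1.20 (SE 0.103, edgeR adjusted p = 4.36e-09). Fam43a also stood higher in the mouse Dux clone (16.2 ± 1.66 CPM) than in the human DUX4 clone (4.48 ± 0.0962 CPM), by 1.86 (SE 0.105, edgeR adjusted p = 9.40e-12; SD, n = 3 each). For Enpp2 the difference was -0.03 (95% interval -0.25 to 0.20, edgeR adjusted p = 0.888), and for Serpinb9g it was 0.75 (95% interval -0.79 to 2.29, edgeR adjusted p = 0.383). Thus 2 of the 4 were called higher and the other 2 were not called, where 33.1% of all genes were called higher and 33.3% lower. These libraries without doxycycline also enter the responses above, so the comparisons are not independent.

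Beyond the 4 genes, the genes called higher in the luciferase line were called in both directions elsewhere. Of the 2004 genes called higher there, 704 (35.1%) were called higher and 851 (42.5%) lower in the mouse Dux line, and 934 (46.6%) higher and 563 (28.1%) lower in the human DUX4 line. Over all tested genes these shares were 34.1% higher and 34.8% lower in the mouse Dux line, so the share called higher was near the background there, and 34.4% higher and 33.1% lower in the human DUX4 line. The 704 made up 15.2% of the genes called higher in the mouse Dux line, and the 934 made up 19.9% of those in the human DUX4 line. Both lines called 373 of them higher (18.6% of the 2004), where 13.6% of all tested genes were called higher in both. The pattern of Enpp2, lower in both, was found in 291 (14.5%), against 14.7% of all tested genes. Among the 191 genes with a log2 fold change of at least 1 in the luciferase line, 89 (46.6%) were called higher and 39 (20.4%) lower in the mouse Dux line, and 70 (36.6%) higher and 28 (14.7%) lower in the human DUX4 line. Both lines called 44 of the 191 higher (23.0%, against 13.6% of all tested genes) and 15 lower (7.85%, against 14.7%). A rare gene can have passed the filter on low counts through another line in which it is high, so these shares are a description. These lines share no library, but the fit shares its estimate of the spread.

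**Figure D4:**
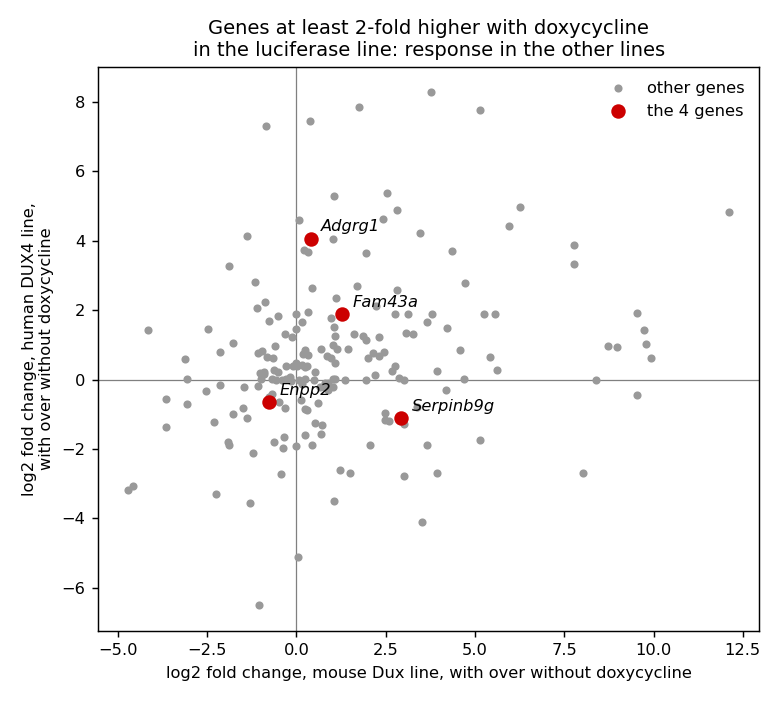
Log2 fold change with over without doxycycline in the mouse Dux line (x axis) and in the human DUX4 line (y axis) for the 191 genes called higher by a log2 fold change of at least 1 in the luciferase line, with the 4 genes in red. The points fall in all 4 quadrants, with Fam43a and Adgrg1 at upper right, Serpinb9g at lower right and Enpp2 at lower left.

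Fam43a and 30 other genes were called higher by a log2 fold change of at least 1 in all 3 lines, which for Fam43a includes the value it was chosen by. Together they were 0.228% of all tested genes. From these, chosen after their values were seen, Trib3, a pseudokinase induced in the integrated stress response, had 2.83 in the mouse Dux line, 2.57 in the human DUX4 line and 2.25 in the luciferase line. Chac1, which degrades glutathione, had 2.33, 1.21 and 1.59 in the same lines, and Gdf15, a secreted stress cytokine, had 1.87, 1.27 and 1.25. Cth, an enzyme of cysteine synthesis, had 4.35 in the mouse Dux line, 3.70 in the human DUX4 line and 1.58 in the luciferase line. The 31 also included Gm2022, at 9.80 in the mouse Dux line, 1.03 in the human DUX4 line and 1.13 in the luciferase line. Some were rare in a line, as Ostn in the luciferase line (5 counts with doxycycline and 0 without). Col20a1 was rare in the human DUX4 line (5 and 0 counts).

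Most of 19 listed genes known to respond to stress of the mitochondria were called higher in the luciferase and mouse Dux lines. In the human DUX4 line they were called in both directions. Of the 19, 18 were called higher and 1 was not called in the mouse Dux line. In the human DUX4 line 8 were called higher and 7 lower, and in the luciferase line 16 higher and 1 lower. Over all tested genes 34.1% were called higher and 34.8% lower in the mouse Dux line. These shares were 34.4% and 33.1% in the human DUX4 line, and 14.7% and 16.4% in the luciferase line. The list's median log2 fold changes were 1.04 in the mouse Dux line, -0.19 in the human DUX4 line and 0.83 in the luciferase line. Over all genes the medians were -0.01, 0.00 and 0.00 in the same lines. Ddit3, which encodes the stress factor CHOP, rose in the mouse Dux line (1.04), had -0.22 in the human DUX4 line and was higher in the luciferase line (1.90). Atf5, a factor of the mitochondrial unfolded protein response, had 0.88, -0.03 and 0.93 in the same lines. Hspd1, the mitochondrial chaperonin, rose in the mouse Dux line (0.73), fell in the human DUX4 line (-0.71) and was lower in the luciferase line (-0.21). In the luciferase line Lonp1 was called higher (0.60), while Hspe1 (-0.07) and Clpp (-0.13) were not called. The list also holds genes of the integrated stress response, such as Trib3, so it is not particular to the mitochondria. Set beside these medians, the log2 fold changes in the mouse Dux, human DUX4 and luciferase lines were 0.40, 4.06 and 3.14 for Adgrg1, -0.77, -0.65 and 1.96 for Enpp2, 1.28, 1.89 and 2.83 for Fam43a, and 2.92, -1.12 (fitted on 3 and 7 counts) and 4.66 for Serpinb9g. The luciferase signs of the 4 genes follow from how they were chosen, and Serpinb9g was not called in the human DUX4 line. Their signs are therefore not matched to those of the list. Whether these genes and the 4 members share a response to doxycycline was not tested.

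**Figure D5:**
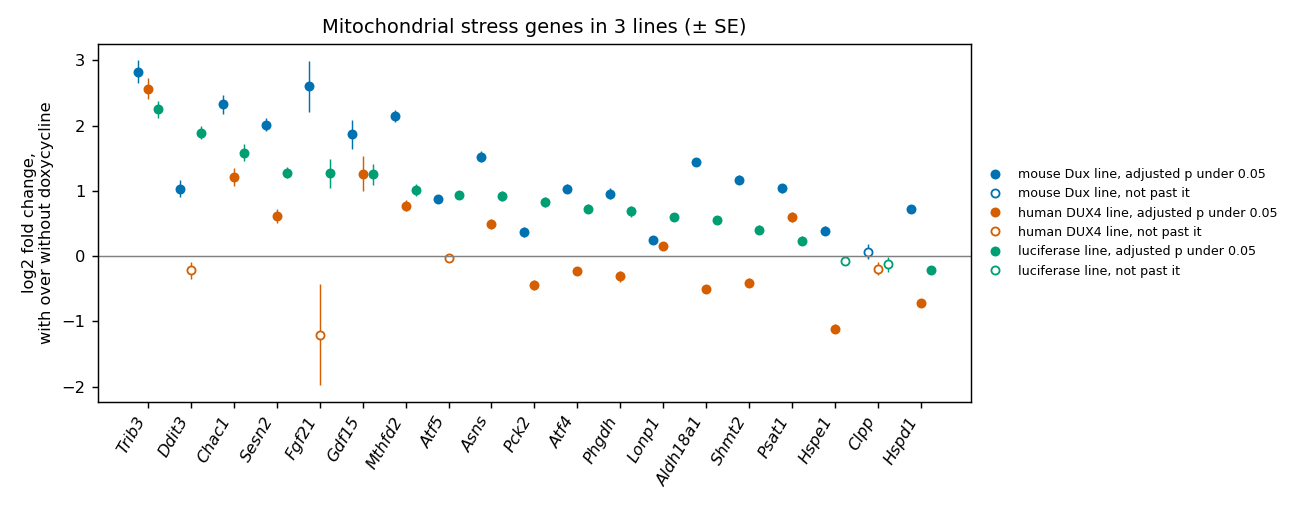
Log2 fold change with over without doxycycline (± SE, edgeR) of 19 genes of mitochondrial stress in the mouse Dux, human DUX4 and luciferase lines, ordered by the luciferase value, with filled points for an adjusted p under 0.05. Trib3 lies above 2 in all 3 lines, and Ddit3, Atf5 and Hspd1 each have their lowest value of the 3 lines in the human DUX4 line.

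Over the 18 libraries the 4 genes did not vary as one. Pearson's r of log2(CPM + 1) between members ran between 0.0771 for Enpp2 with Fam43a and 0.692 for Enpp2 with Serpinb9g, as a description over libraries that share 3 clones. The tested genes most like Adgrg1 were Gpr137b, a lysosomal membrane protein gene (r = 0.984), BC022687 (0.949) and the dynactin subunit gene Dctn4 (0.947). Gpr137b had 61.7 ± 3.29 CPM with doxycycline and 62.2 ± 1.29 CPM without it in the mouse Dux line, 131 ± 3.47 and 47.3 ± 1.62 CPM in the human DUX4 line, and 99.3 ± 2.75 and 48.4 ± 2.23 CPM in the luciferase line (SD, n = 3 each). Its order of responses was therefore that of Adgrg1. Those most like Enpp2 were 1700025F24Rik (0.991), Fap, a cell surface protease gene (0.989), and Kank1, an adhesion adaptor gene (0.987). 1700025F24Rik had 38 counts with doxycycline and 26 without it in the luciferase line, where it was not called (edgeR adjusted p = 0.264). It had 0 counts in the other lines, so its r with Enpp2 does not show a shared response to doxycycline. Fap had 146 counts with doxycycline and 71 without it in the luciferase line, and 1 count in all libraries of the other lines. Those most like Fam43a were Dnajb9, a co-chaperone gene of the endoplasmic reticulum (0.884), Inca1 (0.884) and Neat1 (0.883), and those most like Serpinb9g were Serpinb9f (0.975), Pkhd1l1 (0.956) and Glce, an enzyme gene of heparan sulfate synthesis (0.946). Inca1 had a log2 fold change of 0.24 in the mouse Dux line, where it was not called (edgeR adjusted p = 0.402), and was called higher in the human DUX4 line (0.84) and the luciferase line (1.07). Dnajb9 and Neat1 were called higher in all 3 lines, at log2 fold changes of 1.04 and 1.08 in the mouse Dux line, 0.83 and 0.46 in the human DUX4 line, and 0.57 and 1.95 in the luciferase line.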

How the data were processed

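Whole-number counts of reads per gene, not normalized, were deposited by the authors as 1 table with a column for each of the 18 libraries. The build was mm10 and the tools named were Bowtie2 2.2.3, TopHat2 2.0.12 and CASAVA, per the submitters' processing notes. The sources used here do not give the counting program, gene annotation, use of strand or read length, and reads of overlapping, antisense or near-identical genes may be split between them. The labels gave each library's group and replicate number.

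Genes were filtered by group with filterByExpr, which kept 13602 of 24028. All libraries entered 1 model with a mean for each of the 6 groups in edgeR 4.0.16 in R 4.3.3 (TMM scaling, two-sided quasi-likelihood F test, Benjamini-Hochberg adjustment over all genes tested), and the script was tested on simulated data. The biological coefficient of variation was 6.25%. The spread is pooled over the lines, so p-values may be too small for the mouse Dux line, whose replicates differed most. CPM values are scaled by TMM factors, and intervals on count ratios are exact (95%).

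The 4 genes, gene lists and marker lists were chosen with earlier results of these data known. Besides the 4 genes, the text names the 10 genes with the largest log2 fold changes among those called higher in the luciferase line (1 of them is not reported here), the 3 genes most correlated with each member, neighbours and list members. Alternatives were median-of-ratios scaling, library size alone, no filter, DESeq2 1.42.0, a fit of only the groups compared, the replicate number as a block, and leaving out each library. Replicate numbers paired the samples in the mouse Dux line, where same-numbered cultures deviated together (r of 0.400, 0.219 and 0.202), but not in the human DUX4 line (-0.0403, 0.0208 and -0.0449) or the luciferase line (0.00774, 0.0484 and 0.00806). Promoter windows came from RefSeq (GRCm38.p6), and shared stretches of 50 bases were counted in GENCODE vM21 transcripts. No batch label was given.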

Additional observations from a re-analysis of the deposited data

Results flagged for a closer look

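Between the mouse Dux and human DUX4 lines the response to doxycycline differed for 3 of the 4 genes, each by an edgeR interaction contrast that passed the threshold. The differences, mouse Dux minus human DUX4, were -3.66 on the log2 scale for Adgrg1, -0.61 for Fam43a and 4.04 for Serpinb9g, which ran between 3.503 and 7.24 when each library was left out in turn.

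Enpp2 moved in opposite directions. Every luciferase library with doxycycline stood above every one without it, and every mouse Dux and human DUX4 library with doxycycline stood below every one without it. The difference in log2 fold change was -2.73 for mouse Dux minus luciferase and -2.60 for human DUX4 minus luciferase, and these differences were not tested.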

How the results depend on the processing

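Alternative values of the tested results of the 4 genes were judged by direction and side of the threshold, and counts of calls by how far they moved. By these rules 276 alternatives stayed the same and 5 reversed direction. Of the rest, 1 became weaker, 1 became stronger and 1 count moved. With library size alone, the mouse Dux response of Adgrg1 was 0.15 (log2) and was no longer called, and Enpp2 without doxycycline, mouse Dux minus human DUX4 clone, was 0.034 in place of -0.03. Leaving out each library in turn put that Enpp2 value between -0.11 and 0.021, and the human DUX4 response of Serpinb9g between -4.32 and -0.58. A fit of only the groups compared called 3103 genes higher in the luciferase line, against 2004, and 3077 lower, against 2224. The cause of these shifts was not tested, except that the fit of only 1 line has its own estimate of the spread. With the replicate block the mouse Dux response of Adgrg1 was 0.39 and that of Fam43a 1.28, and the block changed no call of the 4 genes. Depth limits Serpinb9g most, with 3 and 7 counts over the human DUX4 groups with and without doxycycline.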
